A study of Mus musculus with 12 samples.

Results

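The 3 interferon-induced chemokines that bind the receptor CXCR3, Cxcl9, Cxcl10 and Cxcl11, and the receptor gene Cxcr3 were followed across 12 subcutaneous tumors of Renca, a mouse renal carcinoma line. The 4 genes were chosen by symbol, and all 4 are among the 14496 genes of the deposited table. The IK group held 6 subcutaneous tumors that grew with a concomitant tumor in the kidney, which the design text calls immunosuppressive, and the SC group held 6 subcutaneous tumors that grew with no kidney tumor. All 12 were taken on day 14 from BALB/C hosts and sequenced whole, so every library mixes RNA of tumor cells with RNA of stroma and immune cells. Nothing in the labels ties tumors to separate mice, so p-values below measure only the spread between these samples. The series' title and design text set the question as how a distant tumor relates to the transcriptome of a subcutaneous one.

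CXCR3 is a G protein-coupled receptor of activated and memory T cells, natural killer (NK) cells and some dendritic cells. Interferon-gamma, released mainly by T and NK cells, acts through the kinases JAK1 and JAK2 and transcription factors that include IRF1 to switch on its ligands in macrophages, dendritic cells, endothelium and tumor cells. Induction of CXCL9 depends almost wholly on interferon-gamma, and CXCL10 is also induced by type I interferons and through NF-kappaB. CXCL11 binds the receptor most tightly and also binds the scavenger receptor ACKR3. In many mouse tumors these ligands draw in cytotoxic lymphocytes. The mouse reference strain C57BL/6 carries a Cxcl11 gene that cannot make the protein, which is why annotations list it as a pseudogene, whereas these hosts and the Renca line are BALB/c.

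The 3 ligand genes lie next to each other on mouse chromosome 5, and Cxcr3 lies on the X chromosome. The promoters of Cxcl10 and Cxcl9 are shown because their transcripts varied together across the tumors while their promoter letters differ. Each window runs from 250 bases before to 50 bases after the transcription start in RefSeq on GRCm38.p6, minus strand, and capitals mark matches to an interferon-stimulated response element (ISRE, GAAANNGAAA) or to the NF-kappaB consensus, on either strand.
Cxcl10, chr5:92348840-92349139: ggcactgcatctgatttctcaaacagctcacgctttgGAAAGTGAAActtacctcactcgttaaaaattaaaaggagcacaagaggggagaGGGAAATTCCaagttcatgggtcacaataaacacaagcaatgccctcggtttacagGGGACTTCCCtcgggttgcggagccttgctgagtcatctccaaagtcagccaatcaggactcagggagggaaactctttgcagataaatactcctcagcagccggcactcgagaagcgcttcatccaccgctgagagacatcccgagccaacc
Cxcl9, chr5:92328030-92328329: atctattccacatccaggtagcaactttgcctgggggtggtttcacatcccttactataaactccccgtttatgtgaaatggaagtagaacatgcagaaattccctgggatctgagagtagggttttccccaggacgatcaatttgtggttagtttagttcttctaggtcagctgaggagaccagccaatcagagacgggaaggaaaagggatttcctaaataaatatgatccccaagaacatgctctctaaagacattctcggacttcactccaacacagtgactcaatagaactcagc

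The Cxcl10 window held 1 ISRE match, GAAAGTGAAA, and 2 NF-kappaB matches, GGGAAATTCC and GGGACTTCCC, none of which overlapped another. The Cxcl9 window held no match to either motif, nor to the gamma-activated site (GAS, TTCNNNGAA), and the Cxcl10 window held no GAS match. The Cxcr3 promoter, on the X chromosome, held no match to any of the 3 motifs. Among 32544 RefSeq mouse promoters of the same 300 bases, 3.45% held the ISRE letters, 8.33% the GAS letters and 4.53% the NF-kappaB consensus. Such matches describe letters in these windows and say nothing of binding in the tumors. RefSeq promoters were matched for 3 of the 4 genes, and none was used for Cxcl11.

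Cxcl9 had the widest range of the 4 genes. It lay between 2.90 and 8.10 log2 CPM (log2 of reads scaled to an effective library size) with a median of 3.91 in IK tumors. In SC tumors it lay between 5.10 and 7.86 with a median of 6.68. In reads, the lowest tumor held 437 and the highest 15778, so counting error is small beside the spread between tumors. Of the 6 IK tumors, 5 lay below the lowest SC tumor, and IK replicate 2 lay above every SC tumor. The mean was 4.48 ± 1.89 in IK tumors and 6.73 ± 1.02 in SC tumors (SD, n = 6 each), a log2 difference of -2.25 with an SE of 0.78 and a 95% interval of -3.94 to -0.56 (limma).

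Cxcl10, a gene also inducible by type I interferons, lay between 3.0 and 6.42 log2 CPM with a median of 3.56 in IK tumors. In SC tumors it lay between 3.73 and 6.22 with a median of 5.30. IK replicate 2 again stood above all SC tumors, while SC replicate 6 sat among the IK tumors, below IK replicate 5 (3.84). The groups therefore overlapped at both ends. Means were 3.96 ± 1.24 in IK tumors and 5.23 ± 0.86 in SC tumors (SD, n = 6 each), and the log2 difference was -1.27 (SE 0.55, 95% interval -2.45 to -0.09, limma).

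Cxcl11 lay between 0.03 and 4.15 log2 CPM with a median of 0.72 in IK tumors, and between 1.52 and 4.28 with a median of 3.06 in SC tumors. The lowest tumor still gave 59 reads. All IK tumors other than replicate 2 lay at 0.95 or below, under every SC tumor, and only SC replicate 5 exceeded IK replicate 2. The log2 difference was -1.80 (SE 0.64, 95% interval -3.17 to -0.42, limma), from 1.20 ± 1.48 in IK tumors and 3.0 ± 0.93 in SC tumors (SD, n = 6 each). An annotated processed pseudogene on the opposite strand shares 1582 exonic bases with Cxcl11 in GENCODE M21, and strand handling was not given in the sources used here, so reads of the pair cannot be told apart.

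The receptor gene Cxcr3 was the least abundant in reads, with 49 to 561 per tumor. It lay between -0.14 and 2.78 log2 CPM with a median of 0.55 in IK tumors and between 0.46 and 3.14 with a median of 1.96 in SC tumors. SC replicate 6 was at the level of IK replicates 1, 3, 5 and 6, and IK replicate 2 was exceeded only by SC replicate 5. Means were 0.83 ± 1.00 in IK tumors and 1.94 ± 0.87 in SC tumors (SD, n = 6 each), and the log2 difference was -1.11 (SE 0.48, 95% interval -2.16 to -0.06, limma).

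**Figure D1:**
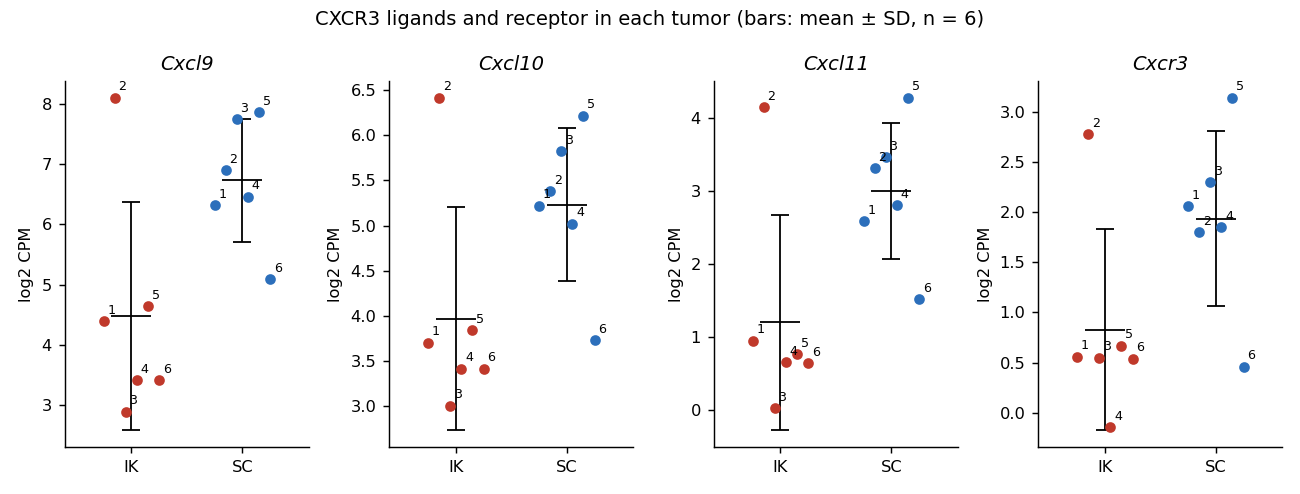
Level of Cxcl9, Cxcl10, Cxcl11 and Cxcr3 in log2 CPM (vertical axes, which differ in range) in each of 6 IK tumors (red, left) and 6 SC tumors (blue, right), with replicate numbers, and group means with SD as black bars. IK replicate 2 lies with the SC tumors in all 4 panels, at 8.10 for Cxcl9 and 2.78 for Cxcr3, and SC replicate 6 is the lowest SC tumor in each.

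None of the 4 genes passed the test over all genes. Limma's two-sided test with Benjamini-Hochberg adjustment over 14008 genes gave an adjusted p of 0.432 for each of them and called 0 genes in either direction, or 0% as background. Limma voom on the recovered reads also called 0 genes. Unadjusted p-values were 0.0131 for Cxcl9, 0.0374 for Cxcl10, 0.0147 for Cxcl11 and 0.0402 for Cxcr3, and 1608 genes (11.5%) had an unadjusted p under 0.05, 787 of them (5.62%) lower in IK. By size of the log2 difference, Cxcl9 was the 6th lowest of the 14008 genes, Cxcl11 the 28th, Cxcl10 the 89th and Cxcr3 the 115th. These genes were picked with earlier results of these tumors known, so their place in that order is a description and not independent evidence.

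A single tumor decided the call. Without IK replicate 2, limma called 3 of the 4 genes lower in IK, with a difference of -2.97 for Cxcl9 (Benjamini-Hochberg adjusted p = 0.0339), -1.76 for Cxcl10 (0.0397) and -2.38 for Cxcl11 (0.0339). Cxcr3 then differed by -1.5 with an adjusted p of 0.0565 (limma). In that fit 1.04% of all genes were called lower and 0.178% higher. Limma with sample weights, which lowers the weight of libraries that fit poorly, called all 4 genes lower, where 3.89% of genes were called, 2.93% lower and 0.957% higher. Over the 12 fits that each leave out 1 tumor, the adjusted p of the 4 genes ranged from 0.0339 to 0.766 (limma), and without SC replicate 6, the other tumor that lay on the far side, it was 0.196 for each. Leaving out a tumor because of where it lies enlarges the difference by construction, so these p-values hold only given the removal. The same limit applies to every call without IK replicate 2 given below for other genes and lists.

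**Figure D2:**
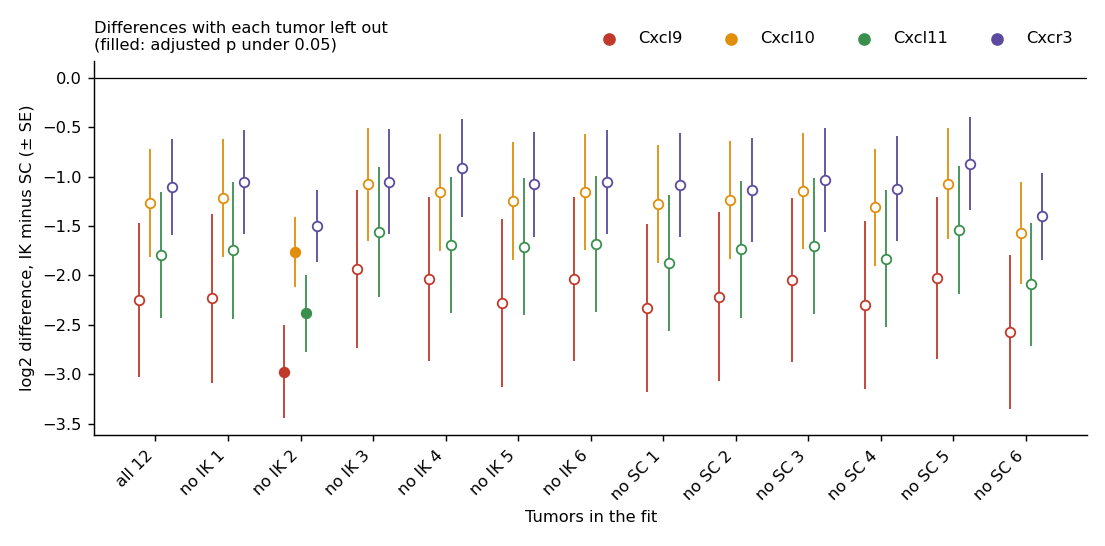
Log2 difference, IK minus SC, of Cxcl9, Cxcl10, Cxcl11 and Cxcr3 (colors) with SE bars, in the fit of all 12 tumors and with each tumor left out in turn along the horizontal axis. Filled points passed an adjusted p of 0.05 over all genes (limma): these are the 3 ligands without IK replicate 2, and every difference plotted lies below 0.

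Levels can be set against each other only per transcript length. Dividing CPM by the exonic length in GENCODE's basic set (2889 bases for Cxcl9, 1520 for Cxcl10, 3794 for Cxcl11 and 1731 for Cxcr3), the median per kilobase was 5.51 for Cxcl9, 7.79 for Cxcl10, 0.434 for Cxcl11 and 0.849 for Cxcr3 in IK tumors. In SC tumors the medians per kilobase were 35.9 for Cxcl9, 26 for Cxcl10, 2.23 for Cxcl11 and 2.25 for Cxcr3. Cxcl9 exceeded Cxcl10 per kilobase in 1 of 6 IK tumors and in 6 of 6 SC tumors, and both exceeded Cxcl11 and Cxcr3 in all 12. By these lengths Cxcl11 and Cxcr3 had no fixed order, with Cxcl11 higher in 1 of 6 IK tumors and 3 of 6 SC tumors. The length of Cxcl11 includes the 1582 bases shared with the pseudogene on the opposite strand. How reads there were counted is not known, so this order could change with the length used. The annotation is newer than the mm9 build the authors used, so their exon lengths may differ.

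The make-up of the ligand transcripts also differed between tumors. Of the reads of the 3 ligands together, Cxcl9 took 58.6, 72.8, 45.4, 46.7, 60.9 and 46.7% in IK replicates 1 to 6, against 64.8, 69.8, 75.8, 69.1, 71.3 and 68.1% in SC replicates 1 to 6. All IK tumors but replicate 2 lay below the lowest SC tumor. SC replicate 6, which had the lowest SC level of all 4 genes, kept a share within the SC range. The 95% Wilson intervals of these shares, which cover counting error only, were at their widest 42.3 to 48.5% in IK replicate 3. On the log2 scale Cxcl9 exceeded Cxcl10 by 0.52 ± 0.69 in IK tumors and by 1.5 ± 0.27 in SC tumors (SD, n = 6 each), uncorrected for length. Cxcl10 exceeded Cxcl11 by 2.76 ± 0.28 in IK tumors and by 2.24 ± 0.24 in SC tumors. No test was run on these ratios, since the comparison was chosen after the values were seen.

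Macrophages are a main source of these ligands, and macrophage transcripts differed little between the groups. Of 12 macrophage markers, 9 had lower and 3 higher means in IK tumors, with 0 called and a median log2 difference of -0.11. Among them were Fcgr1 (-0.32), an interferon-gamma-induced Fc receptor, C1qc (-0.19) and the scavenger receptor Cd163 (0.33). Summed over the list, the markers gave 3795 to 5233 CPM in IK tumors and 3635 to 4943 CPM in SC tumors. Per tumor, the mean of the 3 ligands minus the mean of the macrophage markers was -4.03 ± 1.38 log2 units in IK tumors and -2.33 ± 0.77 in SC tumors (SD, n = 6 each). This difference of -1.70 (95% interval -3.14 to -0.26) had p = 0.0368 by a two-sided exact permutation test, and 0.0736 after Benjamini-Hochberg adjustment over the 2 such values computed. Since the ligands were chosen with earlier results of these tumors known, these p-values describe and are not independent evidence. In 10 of the 12 fits that leave out 1 tumor the unadjusted exact permutation p was 0.052 to 0.0736. It was 0.00433 without IK replicate 2 (difference -2.24) and 0.026 without SC replicate 6 (difference -1.96).

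Cxcr3 was also set against the markers of the cells that carry it. All 14 tested T cell markers had lower means in IK tumors, with 0 called and a median log2 difference of -1.40, among them Cd8a (-1.66), Cd5 (-1.59) and Cd28 (-1.54) at one end and Lck (-0.68) and Cd247 (-0.94) at the other. Summed over all 15 T cell genes of the list, kept by the filter or not, levels were 21.6 to 141 CPM in IK tumors. In SC tumors they were 30.7 to 146.5 CPM. IK replicate 2 was at 141 and SC replicate 6 at 30.7. Limma called 5 of the 14 lower without IK replicate 2, against 1.04% of all genes. That tumor was the highest IK tumor for these markers, so leaving it out favors such calls by construction. Against the mean of these markers, Cxcr3 lay at -0.13 ± 0.37 log2 units in IK tumors and -0.32 ± 0.15 in SC tumors (SD, n = 6 each). The difference of 0.19 (95% interval -0.17 to 0.56) had p = 0.297 by a two-sided exact permutation test, and the same value after adjustment over the 2 ratios. IK replicates 3 and 6, at 0.23 and 0.45, were the only tumors above 0. In whole tumors fewer cells of a type and less RNA per cell cannot be told apart.

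**Figure D3:**
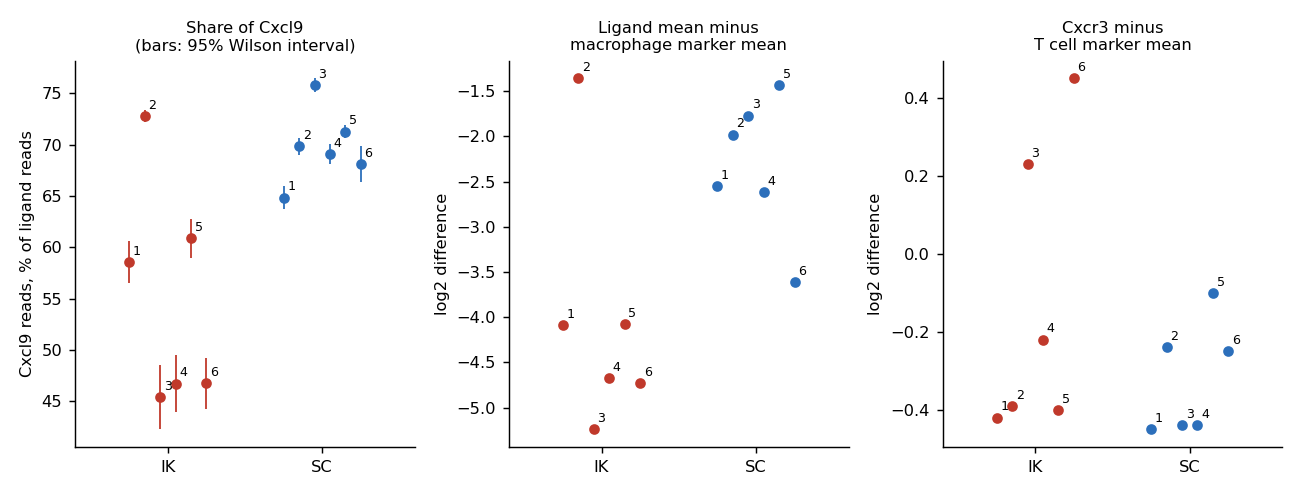
Left, reads of Cxcl9 as a percentage of the reads of Cxcl9, Cxcl10 and Cxcl11 together, with 95% Wilson intervals; middle, mean log2 level of these 3 ligands minus that of 12 macrophage markers; right, log2 level of Cxcr3 minus the mean of 14 T cell markers, each in 6 IK tumors (red) and 6 SC tumors (blue) with replicate numbers. IK replicate 2 lies in the SC range for the first and above it, at -1.36, for the second, while for the third the groups overlap, from -0.42 to 0.45 in IK tumors and from -0.45 to -0.10 in SC tumors.

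Other lymphocyte and dendritic cell lists also had lower means. All 9 tested NK and cytotoxic lymphocyte markers had lower means in IK tumors (median -1.79, 0 called), with the granule proteases Gzmb at -2.08 and Gzma at -2.03 and perforin Prf1 at -2.01. The lowest tumor held 4 reads of Gzmb and 17 of Prf1. Limma called 5 of the 9 lower without IK replicate 2, against the same 1.04%. Here too that tumor was the highest IK tumor, so its removal favors such calls by construction. Summed over all 10 genes of that list, kept by the filter or not, levels were 9.0 to 91.4 CPM in IK tumors. In SC tumors they were 17.5 to 125.5 CPM. All 8 dendritic cell markers were lower as well (median -0.57, 0 called), including Siglech of plasmacytoid cells (-1.21) and Xcr1 of cross-presenting cells (-0.79), with 64.6 to 149 CPM summed in IK tumors and 72.5 to 173 CPM in SC tumors. No marker of these lists was at 0 reads in any tumor. The part of these cells in the levels of the 4 genes was not tested.

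Markers of other cells were also counted. The median log2 difference was -0.07 for 7 epithelial and renal tumor cell markers (6 lower), where Krt8 lay at -0.04. It was -0.14 for 7 endothelial markers (7 lower), -0.39 for 8 fibroblast markers (8 lower) and -0.27 for 4 neutrophil markers (4 lower). A list of muscle, fat and skin markers was tested through 11 muscle and fat genes, 6 of them lower, and its 4 skin keratins were not analysed here. Its median of -0.37 rested on single tumors, at -1.10 without SC replicate 6 and 0.17 without SC replicate 5. All 4 tested fat genes had lower means in IK tumors, Cidec by -1.82, Cfd by -1.31, Adipoq by -1.15 and Fabp4 by -0.76, while the 7 muscle genes lay between -0.51 (Atp2a1) and 0.35 (Mylpf), a grouping made after the values were seen. For 3 B and plasma cell markers the median was 0.01, although Jchain, the joining chain of secreted antibodies, lay at -2.86. Limma called 0 members of each list after Benjamini-Hochberg adjustment. Over all 14008 genes the median was 0.0074, and 46.7% of them were lower in IK tumors.

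Interferon-gamma itself, the inducer of the ligands, was close to the detection limit. Ifng gave 2, 114, 1, 4, 7 and 12 reads in IK replicates 1 to 6, against 29, 67, 96, 40, 135 and 13 reads in SC replicates 1 to 6. Only IK replicate 2 among the IK tumors exceeded SC replicate 6. Ifng reached the filter's level in 4 tumors and was not among the genes tested, and with so few reads no fold change is given. In a fit of all 14496 genes without that filter it was not called (limma, Benjamini-Hochberg adjusted p = 0.431).

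The interferon signalling genes are given by their place in the pathway. The receptor chains Ifngr1 (0.04) and Ifngr2 (0.0071) and the kinases Jak1 (0.02) and Jak2 (-0.11) had log2 differences near 0, with Ifngr1 at 7.35 ± 0.07 log2 CPM in IK tumors and 7.32 ± 0.13 in SC tumors (SD, n = 6 each). Interferon-inducible members lay lower: the feedback inhibitor Socs1 at -0.83, and the factors Irf1 and Irf8 at -0.57 each. On the type I side, Irf7 lay at -0.76, Stat2 at -0.44 and Irf9 at -0.30, while the receptor chains Ifnar1 and Ifnar2, the kinase Tyk2 and the factor Irf3 lay between -0.15 and -0.11. Of the 15 tested genes of this list 12 were lower and 3 higher, 0 were called, and the median was -0.15. Without IK replicate 2, limma called Irf1 lower (difference -0.83, Benjamini-Hochberg adjusted p = 0.0471), where 1.04% of all genes were called lower.

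Upstream of interferon-gamma, all 11 tested inducers had lower means in IK tumors (median -0.46, 0 called). Tbx21, which encodes the factor T-bet that drives both Ifng and Cxcr3 transcription in lymphocytes, had the largest log2 difference at -2.28, and Eomes, its relative in cytotoxic cells, lay at -1.87. Stat4, which carries the interleukin-12 signal, lay at -0.78 and the receptor chain Il12rb2 at -0.64. The cytokines themselves differed less: Il15 by -0.46, Il12b by -0.36, Il18 by -0.35 and Ebi3 by -0.27. Receptor chains Il18rap (-0.46), Il18r1 (-0.18) and Il12rb1 (-0.13) completed the tested genes, and Il27 lay under the filter. Without IK replicate 2, limma called 2 of the 11 lower, Tbx21 and Eomes, where 1.04% of all genes were called lower. These are scarce transcripts, with as few as 4 reads of Tbx21 and 11 of Eomes in a tumor.

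Other genes that interferon-gamma induces were examined beside the ligands. All 18 tested members of that list had lower means in IK tumors, with a median log2 difference of -0.92 and 0 called. The ubiquitin-like modifier Ubd (-3.36), the GTPase Tgtp1 (-2.03) and the guanylate-binding protein Gbp4 (-1.78) had the largest differences, and the checkpoint ligand gene Cd274 (-0.35), the immunoproteasome subunit Psmb8 (-0.60) and the peptide transporter chain Tap2 (-0.60) the smallest. Cxcl9 therefore lay between Ubd and Tgtp1, and Cxcl10 within the range of the list. Tgtp1 has a near-identical copy, so its reads are uncertain. Without IK replicate 2, limma called 16 of the 18, where 1.22% of all genes were called in either direction. IK replicate 2 had the highest summed level of this list among IK tumors (3837 CPM). Its removal therefore favors such calls by construction, and their number is not independent evidence.

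Set among all chemokine ligands, Cxcl9 had the lowest log2 difference, with 0 of 25 other tested ligands below it. Only Xcl1 (-1.90), the ligand of Xcr1 made by activated lymphocytes, lay below Cxcl11, and Cxcl10 also stood behind Cxcl13 (-1.53), which attracts B cells. The median of the 25 other ligands was -0.18, with 19 lower, 6 higher and 0 called. At the other end were the neutrophil attractants Cxcl3 (0.36), Cxcl2 (0.35) and Cxcl1 (0.32), which bind CXCR2 and are not interferon-gamma targets. Pf4, a platelet chemokine known in humans to bind a CXCR3 variant, differed by -0.14. Without IK replicate 2, limma called 2 of these 25 ligands lower, Ccl8 and Xcl1, where 1.04% of all genes were called lower.

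Among 14 other tested chemokine receptors, 0 lay below Cxcr3 (-1.11), although Ccr9 (-1.10), also a lymphocyte receptor, was close. Of the 14, 12 were lower and 2 higher, with a median of -0.29 and 0 called. Xcr1 lay at -0.79, Cxcr6, also found on effector T cells, at -0.48 and Cxcr4 at 0.11. Ackr3, the scavenging receptor for CXCL11, differed by -0.03.

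**Figure D4:**
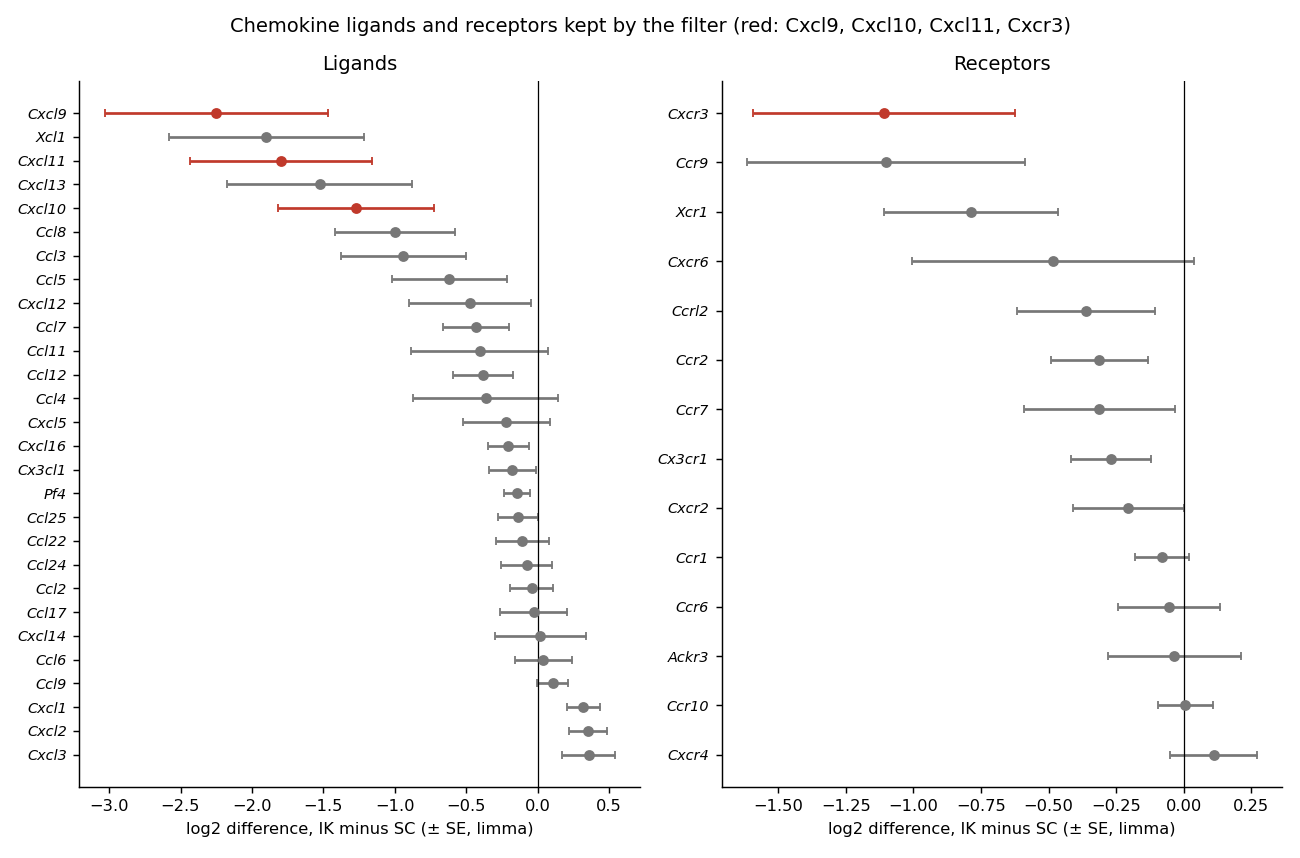
Log2 difference, IK minus SC, with SE from limma (horizontal axes, which differ in range) for the chemokine ligands (left) and receptors (right) that passed the filter on low values, with 1 receptor not drawn. Cxcl9 at -2.25 and Cxcr3 at -1.11 top their panels, and the neutrophil attractants Cxcl1, Cxcl2 and Cxcl3 lie to the right of 0.

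The 4 genes parted the tumors at the same place. For each of them the widest step between neighboring tumors, 1.08 to 1.21 log2 units, parted 6 low tumors from 6 high ones. The low tumors were 5 of the IK group and SC replicate 6, and the high ones 5 of the SC group and IK replicate 2. The split was not particular to these genes. The mean of the T cell markers parted the same tumors, at 1.07 log2 CPM or below against 2.04 or above. The mean of the NK and cytotoxic lymphocyte markers did too, at 0.60 or below against 1.94 or above. How many of all genes part the tumors in this way was not counted. Because the tumors fall apart in this way, correlations are given within groups and also within the 6 low and the 6 high tumors. IK replicate 2 and SC replicate 6 stay in their groups, so within-group r does not remove this split. In SC tumors the 6 pairs of members had Pearson r of 0.92 to 0.97 and Spearman rho of 0.77 to 1 (n = 6). Exact permutation p-values, adjusted by Benjamini-Hochberg over 10 relations that include 4 with Ifng, were 0.0046 to 0.0194 for r and 0.0093 to 0.103 for rho. With the 2 tumors farthest from the median left out, r was 0.29 to 0.95 over 4 tumors, lowest for Cxcl11 with Cxcr3, which then rests on those tumors.

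In IK tumors r was 0.93 to 0.99 and rho 0.71 to 1 for the same pairs (n = 6), with exact permutation adjusted p of 0.0139 to 0.0741 for r and 0.0278 to 0.17 for rho. These values rest largely on replicate 2: without the 2 farthest tumors r was 0.44 to 0.99, with Cxcl9 and Cxcl10 at 0.99. With Ifng the 4 genes had r of 0.89 to 0.99 in SC tumors (exact permutation adjusted p 0.0046 to 0.017) and 0.84 to 0.91 in IK tumors (0.0575 to 0.0819). Spearman's rho with Ifng was 0.77 to 1 in SC tumors (exact permutation adjusted p 0.0093 to 0.103) and 0.37 to 0.71 in IK tumors (0.17 to 0.497). Without the 2 farthest tumors r with Ifng was 0.48 to 0.98 in SC tumors, lowest for Cxcr3. In IK tumors it was then -0.82 to 0.31, where Ifng had few reads. Within the 6 low tumors r with Ifng was -0.01 to 0.69 (exact permutation adjusted p 0.316 to 0.985).

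Correlations were also computed within the 6 low and the 6 high tumors. Cxcl9 with Cxcl10, Cxcl9 with Cxcl11 and Cxcl10 with Cxcl11 had r of 0.91, 0.89 and 0.81 in the low tumors (n = 6, exact permutation adjusted p = 0.0903, 0.0903 and 0.213), and 0.99, 0.76 and 0.85 without the 2 farthest tumors. Cxcr3 had r of 0.30, 0.22 and 0.0082 with Cxcl9, Cxcl10 and Cxcl11 (n = 6, exact permutation adjusted p 0.892 to 0.985), and 0.66, 0.54 and 0.44 without the 2 farthest tumors. Spearman's rho of Cxcr3 with these ligands was 0.20, 0.43 and 0.029 (exact permutation adjusted p 0.599 to 1). Within the 6 high tumors Cxcr3 had r of 0.81, 0.90 and 0.87 with the same ligands (n = 6, exact permutation adjusted p 0.0298 to 0.0694), rho of 0.71, 0.77 and 0.77 (0.114 to 0.136), and r of 0.84, 0.75 and 0.90 without the 2 farthest tumors. These 6 and 6 tumors were told apart by the genes' own levels, and the difference between the sets of r was not tested.

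**Figure D5:**
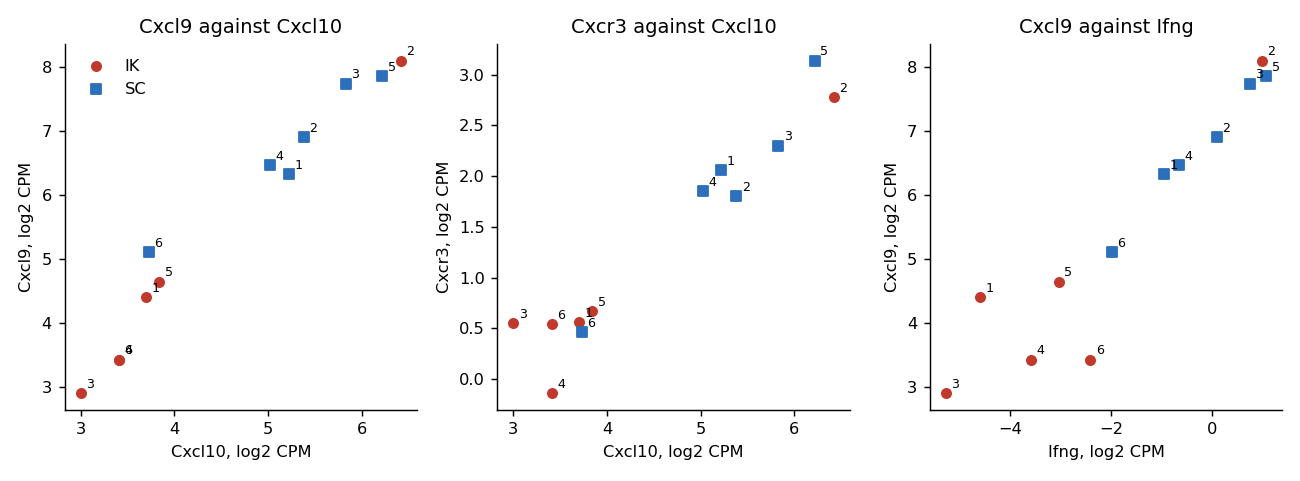
Log2 CPM of Cxcl9 against Cxcl10, Cxcr3 against Cxcl10 and Cxcl9 against Ifng in 6 IK tumors (red circles) and 6 SC tumors (blue squares), with replicate numbers. In the first 2 panels IK replicate 2 lies at the upper end among SC tumors and SC replicate 6 at the lower end among IK tumors, and Cxcr3 stays between -0.14 and 0.67 over the 6 low tumors.

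The genes whose pattern over the 12 tumors was most like each member were sought among 13238 tested genes with a symbol, by Pearson r as a measure of likeness without a test. For Cxcl9 these were Gm43302, the GTPases Igtp and Tgtp2, and the guanylate-binding proteins Gbp2 and Gbp3, at r of 0.995 to 0.997. For Cxcl10 the first 4 were Socs1, the proteasome activator Psme1 and the GTPases Ifi47 and Irgm1, at 0.99 to 0.992. Cxcl11 was nearest to Gm43302, the interleukin-18 binding protein gene Il18bp, the protease inhibitor gene Serpina3f, Gm8995 and Gzma, at 0.984 to 0.986. For Cxcr3 the nearest were the complement factor Cfb and the lymphocyte phosphatase partner Ptprcap. Next came the cytokine gene Ltb, the shared cytokine receptor chain Il2rg and Dennd1c, with r of 0.987 to 0.991 over these genes. Whether the members differ in their nearest genes was not tested. After group means were subtracted, r was 0.992 to 0.995 between Cxcl9 and its 5 genes and 0.983 to 0.989 between Cxcr3 and its 5. That step leaves IK replicate 2 far above, and SC replicate 6 below, the rest of their groups. The split of the tumors therefore still enters these values.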

How the data were processed

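RNA of 12 whole tumors was sequenced from Illumina TruSeq libraries of total RNA, per the labels' protocols. Build mm9 and the tools TopHat 1.4.1, CASAVA 1.8.2, limma and HTSeq come from the submitters' processing notes; for their settings, strand handling and annotation the sources used here say nothing. The values the authors deposited, for 14496 genes, are log2 counts scaled to an effective library size per tumor. Undoing the log2 gave whole reads with 0.5 added (100% of values, within 0.001 of a read), the form of log2 CPM. The effective size was not the plain sum of recovered reads: it was below the sum in IK replicate 2 and above it in IK replicate 5. The values therefore appear to hold a further scaling between tumors, whose method is not given. Recovered reads summed to 53312559 to 66142468 per tumor, and every gene reached log2 0 in at least 2 tumors.

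Values were used as deposited. Genes at log2 0 or more in at least 6 tumors were kept (14008). They were tested, IK minus SC, with limma 3.58.1 in R 4.3.3 (empirical Bayes with trend, two-sided, Benjamini-Hochberg, threshold 0.05). The fit was checked on simulated data with independent genes and no tumor set apart. That check does not cover the split of the tumors seen here. Single values per tumor were compared by exact permutation. Symbols came from a table of Ensembl gene IDs (14004 matched) and lengths from GENCODE M21. The 4 genes, the lists and the tests were chosen with earlier results of these data known. Named genes were the members, the signalling and inducer lists, the 3 lowest and 3 highest of other lists and the 5 nearest in pattern. Other list members given as examples were chosen after their values were seen. Genes on chromosome 18 and some other genes of these lists are not reported here. Correlations were planned over all 12 tumors. The tumors fell into 2 clusters that cross the groups, so correlations are given within groups and within the 6 low and the 6 high tumors.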

Additional observations from a re-analysis of the deposited data

Results flagged for a closer look

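In a group of 6 tumors, a tumor was marked when its gap to the next divided by the group's range exceeded Dixon's 95% critical value. Over 28 groups of values 9 tumors were marked, and chance marks about 1 in 20 groups. IK replicate 2 stood above the other IK tumors for Cxcl9 (8.10, next 4.64), Cxcl10 (6.42, next 3.84), Cxcl11 (4.15, next 0.95) and Cxcr3 (2.78, next 0.67), in log2 CPM. It was also apart in the ligand mean minus the macrophage marker mean (-1.36, next -4.08) and in the scores of T cell markers (3.17, next 1.07), NK and cytotoxic lymphocyte markers (3.06, next 0.55) and macrophage markers (7.58, next 7.22). These measures share transcripts and cells and are not separate signs. SC replicate 3 stood above the other SC tumors in Cxcl9 minus Cxcl11 (4.27, next 3.72).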

How the results depend on the processing

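All 4 genes had a negative difference in every alternative run. Calls appeared in limma with sample weights (Cxcl9 -2.67, Cxcl10 -1.61, Cxcl11 -2.17, Cxcr3 -1.43, Benjamini-Hochberg adjusted p of 0.0369 to 0.0383), which called 411 genes lower and 134 higher, and without IK replicate 2, which called 146 lower and 25 higher. Without a variance trend 1 gene was called higher, and every other alternative called 0 genes. With single tumors left out, differences ranged from -2.97 to -1.93 for Cxcl9, -1.76 to -1.07 for Cxcl10, -2.38 to -1.54 for Cxcl11 and -1.5 to -0.87 for Cxcr3, and counts from 0 to 146 lower and 0 to 25 higher. Other scalings, filters, the voom fit and a covariate of muscle and fat markers left the 4 genes uncalled. The ligand mean minus macrophage markers ranged from -2.24 to -1.46 with single tumors left out. Its exact permutation p was 0.0625 with a replicate block (-1.70), over 6 same-numbered pairs. The numbers are not known to pair tumors: same-numbered deviations correlated at -0.305 to 0.447, and 1 of 12 tumors correlated best with its own number. With the block limma called 0 genes and gave Cxcl9 -2.25 (adjusted p = 0.439). The medians of all 15 lists moved by less than the spread between tumors, that of the muscle and fat genes from -1.10 to 0.17 with single tumors left out. Depth limits Ifng, at 1 to 135 reads, and the lowest tumors of scarce genes such as Gzmb and Tbx21 (4 reads each) and Ubd (7 reads), and the cause of the change with sample weights was not tested.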

Other observations

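The genes beside the ligand cluster on chromosome 5 differed far less than the ligands. Going along the chromosome, Naaa differed by -0.20 (SE 0.12), Sdad1 by -0.14 (SE 0.04), Art3 by -0.43 (SE 0.20), Nup54 by 0.08 (SE 0.04) and Scarb2 by -0.02 (SE 0.04) on the log2 scale, IK minus SC, against -2.25 for Cxcl9. None was called (limma, Benjamini-Hochberg adjusted p 0.432 to 0.863). Art3 spans Cxcl10 and Cxcl11 on the opposite strand, with 0 shared exonic bases in the basic annotation, and lay between 2.10 and 3.29 log2 CPM in IK tumors and between 2.51 and 3.64 in SC tumors.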
